A study of Mus musculus with 18 samples.

Results

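The genes described here encode the respiratory chain and ATP synthase of the mitochondrion, measured in sorted colon epithelial cells of wild-type and Mbd2-deficient mice. A probe was taken where its gene symbol begins with Nduf, Uqcr or Atp5, begins with Cox followed by 4, 5, 6, 7 or 8, or is Sdha, Sdhb, Sdhc or Sdhd. A further condition was detection above the negative controls on 4 arrays or more, each time with a detection p-value under 0.05. The array table named 119 such probes of 81 genes. Of these, 102 probes of 73 genes passed the detection filter, out of 21938 probes of 15646 gene symbols that passed it in the whole table and 45281 probes listed. By complex, they were 50 probes for complex I, 5 each for complexes II and III, 18 for complex IV and 24 for complex V. The rule is by symbol, so it also caught genes whose products are not subunits: Cox4nb (now Emc8, part of a membrane complex of the endoplasmic reticulum), the complex I assembly factors Ndufaf1 and Ndufa12l, and Atp5s and Atp5sl (now Dmac2l and Dmac2). Cox7a2l, whose product helps respiratory complexes to associate with each other, is also among them.

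Messenger RNA was read on Illumina MouseWG-6 BeadChips, whose beads carry probes of 50 bases that bind the labelled transcripts. The cells were EpCAM+CD45-CD3-F4/80- colon epithelial cells purified by flow cytometry. They came from WT mice or from Mbd2KO mice, which lack the methyl-CpG-binding protein Mbd2 in every cell, on a C57BL/6 background. Colitis was induced with 2% DSS (dextran sulphate sodium, which damages the epithelium), and naive mice were given none. The 4 groups were DSS_WT, DSS_KO, Naive_WT and Naive_KO, with 4 samples each after arrays 4R and 5R had been averaged with arrays 4 and 5. The labels do not explain the letter R. That these were repeats of the same samples was inferred from how little each pair differed, whereas the study's replicate number for the DSS groups fits separate samples. With the 18 arrays taken as separate samples, the members called by limma went from 4 to 7 in DSS_WT against Naive_WT (all tested probes: 8.24% higher and 7.5% lower) and from 6 to 13 in DSS_KO against Naive_KO (6.96% and 6.81%). A sample may pool several mice, the labels give no day of sampling or age, and p-values measure only the spread between these samples, which may in part be technical. The 18 arrays detected between 18851 and 20618 probes. The only probe for Mbd2 was detected on 0 of 18 arrays, so it could not check the genotypes. Samples are called by their number in the labels.

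Respiration in the inner mitochondrial membrane proceeds through a chain of protein complexes. Complex I (NADH dehydrogenase, Nduf genes) and complex II (succinate dehydrogenase, Sdh genes) pass electrons to ubiquinone, complex III (Uqcr genes) hands them to cytochrome c, and complex IV (cytochrome c oxidase, Cox genes) transfers them to oxygen. The proton gradient that builds up drives complex V, the ATP synthase (Atp5 genes). Differentiated colonocytes are known for oxidising butyrate, a product of gut bacteria, through this chain.

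Few respiratory chain probes differed between the groups beyond the spread of the samples, which was estimated over all groups together. In each of the 4 comparisons, between 1 and 6 of the 102 probes passed limma's test at an adjusted p under 0.05, and 12 differences of 10 probes passed in all. The members' share was 0.98% in DSS_KO against DSS_WT, 0.98% in Naive_KO against Naive_WT, 3.92% in DSS_WT against Naive_WT and 5.88% in DSS_KO against Naive_KO, while of all tested probes 5.63%, 5.19%, 10.5% and 9.42% passed. The largest was a fall of Cox8b, a cytochrome c oxidase subunit best known from muscle and brown fat, in DSS-treated Mbd2KO cells. For most probes the data set a bound on the difference. Between DSS_KO and DSS_WT, the 95% confidence interval of the log2 difference lay wholly between -1 and 1 for 99 of 102 probes (97.1%), against 89.4% of all tested probes. It lay within 0.5 either way for 69 probes (67.6%), against 48.9% of all tested probes. The bound was looser in DSS_KO against Naive_KO, where the interval lay between -1 and 1 for 89 members (87.3%, all tested probes 89.8%) and within 0.5 either way for 52 (50.98%, all tested probes 45.1%).

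Central subunits are given first, many of them from bright probes near the upper end of the scale: 23 of the 102 members had a mean log2 signal above 13, as did 1.70% of all tested probes, where the highest mean was 14.76. How far such probes were compressed was not tested. Atp5b, the catalytic beta subunit of ATP synthase, had log2 signals of 14.82, 14.76, 14.74 and 14.80 in DSS_WT samples 1 to 4 and 14.79, 14.82, 14.75 and 14.77 in DSS_KO samples 5 to 8. In the naive mice it had 14.74, 14.78, 14.73 and 14.70 in WT samples 9 to 12 and 14.69, 14.68, 14.78 and 14.76 in Mbd2KO samples 13 to 16. All 4 groups overlapped, close to the highest mean of any probe. Cox4i1, the regulatory subunit of cytochrome c oxidase in most tissues, averaged 14.31 ± 0.02 in DSS_WT and 14.28 ± 0.04 in DSS_KO (SD, n = 4 each), and 14.29 ± 0.10 in Naive_WT and 14.24 ± 0.09 in Naive_KO. Among the 4 comparisons its difference was greatest in size in Naive_KO against Naive_WT, at -0.05, with an interval from -0.24 to 0.14. Cox5a, another core-associated subunit of that enzyme, differed by -0.12 between DSS_KO and DSS_WT (interval -0.31 to 0.07) and by 0.15 between DSS_WT and Naive_WT (-0.04 to 0.34). Neither difference passed the test. Ndufv1, which binds NADH in complex I, and Uqcrc1, a core protein of complex III, differed by 0.01 each between DSS_KO and DSS_WT (intervals -0.26 to 0.27 and -0.21 to 0.23). Atp5a1, the alpha subunit of ATP synthase, had differences of -0.33 in Naive_KO against Naive_WT (interval -0.60 to -0.07, adjusted p = 0.13) and -0.31 in DSS_WT against Naive_WT (-0.58 to -0.05, adjusted p = 0.12).

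Some central subunits could not be followed. Ndufs1 was detected on 0 arrays, Sdha on at most 3, Uqcrfs1 on at most 2 and Uqcrq on 1. Cox4i2 and Cox6a2, tissue-restricted isoforms, were detected on 1 and 3 arrays, and Cox7b2 and Cox8c, isoforms known from testis, on 0. With second probes of genes that had another one, 17 of the 119 probes dropped out. No level is given for them. No probe carried the symbol Ndufa4l2, Cox8a or Atp5g1.

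**Figure D1:**
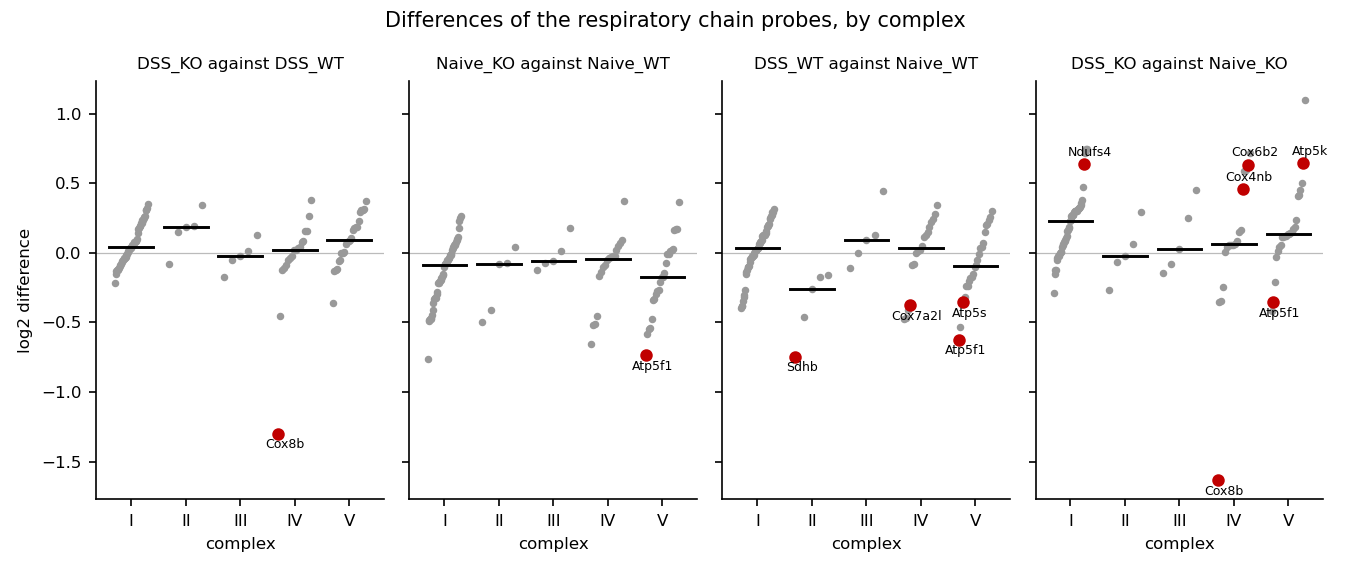
Each point is 1 of the 102 probes, placed by complex (horizontal axis) and by its log2 difference (vertical axis) in the comparison named above the panel. Red points passed limma's test at an adjusted p under 0.05, and black bars are the medians of each complex. Most points lie within 0.5 of 0, and the 2 lowest are Cox8b in the comparisons that hold the DSS_KO group.

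With DSS, Mbd2KO and WT cells were set against each other to see what Mbd2 deficiency changed during colitis. No probe of the 102 was higher in DSS_KO (all tested probes: 2.46%) and 1 was lower (3.17%). At the study's thresholds (adjusted p under 0.01 and an absolute log2 difference of 1 or more) limma called 0 members (all tested probes: 0.862%), and 3 members (2.94%) had an unadjusted p under 0.05, as did 22.2% of all tested probes. That 3 became 5 without sample 1, 3 or 6, 6 without sample 15 and 7 without sample 12 (20.5% to 24.1% of all tested probes). It became 10 with no background correction (21.5%), with the DSS groups fitted alone (23.4%) or with 18 separate arrays (27.6%), and 12 without samples 12 and 15 (25%). Samples outside a comparison enter only through the spread, which limma estimated over all groups together. The median log2 difference was 0.04 over the members and -0.00 over all tested probes. By complex, the medians were 0.04 for I, 0.18 for II, -0.02 for III, 0.02 for IV and 0.09 for V.

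The member that fell was Cox8b (ILMN_2727520, at positions 148084909 to 148084958 of chromosome 7 in the table's own coordinates, which name no build and may mix several). Its log2 signals were 4.57, 4.64, 5.90 and 4.52 in DSS_KO samples 5 to 8, and 6.07, 6.42, 5.89 and 6.46 in DSS_WT samples 1 to 4. In the naive groups they were 5.81, 7.58, 6.52 and 6.82 in WT samples 9 to 12 and 6.81, 7.02, 5.83 and 6.51 in Mbd2KO samples 13 to 16. Thus 3 DSS_KO samples lay below every other sample, and sample 7 lay among the other groups. The probe was detected on 1 of the 5 DSS_KO arrays and on all arrays of the other groups. The log2 difference was -1.30 ± 0.35 (SE, limma adjusted p = 0.041) against DSS_WT and -1.63 ± 0.35 (adjusted p = 0.0089) against Naive_KO. The second passed the study's thresholds as well. With each undetected DSS_KO array raised to its lowest detected signal, the differences were -1.04 and -1.38. Their size depends on how background was handled: the first difference was -0.73 (adjusted p = 0.088) with an offset of 50 in place of 16, and -0.44 (adjusted p = 0.13) with no background correction. The second was -0.98 (adjusted p = 0.019) and -0.60 (adjusted p = 0.031) in the same settings, which is short of the study's limit of 1. The first also missed the threshold without any 1 of DSS_WT samples 1, 2 and 4 or DSS_KO samples 5, 6 and 8 (adjusted p from 0.058 to 0.11).

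Genes of other cell types moved in the same comparison. Of the 7 smooth muscle genes tested, 5 were lower in DSS_KO than in DSS_WT, with mean log2 signals over the list of 7.52 to 8.58 per sample in DSS_KO and 9.00 to 9.59 in DSS_WT (Cnn1 and Synpo2 were below the detection filter). Myh11, the smooth muscle myosin heavy chain, had a difference of -1.36 ± 0.23 (SE, limma adjusted p = 0.0033). Of 8 endothelial genes, 5 were lower (5.90 to 6.13 against 6.50 to 6.93), of 9 fibroblast and matrix genes 3 were lower (8.03 to 8.91 against 8.78 to 9.47), and of 7 colonocyte genes 1 was lower (9.34 to 10.78 against 9.88 to 11.01): Aqp8, a water channel of surface colonocytes, at -2.12 ± 0.46 (adjusted p = 0.013). Of 4 T and NK cell genes tested, Cd3g was lower (-0.45 ± 0.13, adjusted p = 0.049), while Cd3e, Cd2 and Cd8a were below the detection filter. Between DSS_KO and Naive_KO, where Cox8b also fell, 0 of the 7 smooth muscle and 0 of the 8 endothelial genes passed limma's test in either direction (1 and 0 at an unadjusted p under 0.05), and 2 of the 7 colonocyte genes, Aqp8 and Car4, were lower. The part of these cell types in the Cox8b result was not tested, and in sorted bulk samples fewer cells of a type cannot be told apart from less RNA per cell. The 12 epithelial identity genes had list means of 12.08 to 12.38 in all 16 samples. None passed limma's test in either of these comparisons (2 and 1 at an unadjusted p under 0.05), and Cdh1, which encodes E-cadherin, was lower in DSS_WT than in Naive_WT (-0.37 ± 0.11, SE, limma adjusted p = 0.038). Ptprc, which encodes the sorted-out surface protein CD45, was below the detection filter.

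Without DSS, the comparison of Mbd2KO with WT cells asks what the deficiency changed in a healthy gut. No member was higher (all tested probes: 2.43%) and 1 was lower (2.77%). None passed the study's thresholds by limma (0.656% of all tested probes), and 22 members (21.6%) had an unadjusted p under 0.05, against 22.8% of all tested probes. These 22 became 41 without sample 12 (all tested probes 21.2%), 13 without sample 11 (19.1%) and 11 without sample 15 (20.5%). The median difference was -0.08, with 73 members below 0 and 29 above it, while the median over all tested probes was -0.00. By complex, the medians were -0.09 for I, -0.08 for II, -0.06 for III, -0.04 for IV and -0.17 for V. Genes of other cell types also differed in level between these groups. The 7 smooth muscle genes had list means of 8.22 to 8.77 per sample in Naive_KO and 8.61 to 9.45 in Naive_WT (median difference -0.59), and the 8 endothelial genes 5.86 to 6.18 and 6.17 to 6.51 (-0.36). limma called 0 genes of either list, though 4 of each had an unadjusted p under 0.05. The 9 myeloid genes had 6.43 to 7.47 and 6.18 to 6.83, and Csf1r, the receptor of a macrophage growth factor, was higher in Naive_KO (0.67 ± 0.19, SE, limma adjusted p = 0.049). Of 8 goblet cell genes, Spdef was higher (0.86 ± 0.15, adjusted p = 0.0054) and Agr2 lower (-0.87 ± 0.22, adjusted p = 0.032). The part of these cell types in the members' shift was not tested.

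The member that passed was a probe of Atp5f1 (now Atp5pb), which encodes subunit b of the stalk that holds the ATP synthase head in place. Its log2 signals were 7.56, 7.91, 7.28 and 7.18 in Naive_KO samples 13 to 16 and 8.14, 8.14, 8.43 and 8.16 in Naive_WT samples 9 to 12. They were 7.70, 7.57, 7.33 and 7.78 in DSS_WT samples 1 to 4 and 8.00, 7.70, 7.98 and 7.93 in DSS_KO samples 5 to 8. All Naive_WT samples lay above all others. This probe (ILMN_2717599) differed by -0.74 ± 0.15 (SE, limma adjusted p = 0.012) between Naive_KO and Naive_WT, and by -0.62 ± 0.15 (adjusted p = 0.016) between DSS_WT and Naive_WT. Fitting the naive groups alone ended the first call (adjusted p = 0.058), as did leaving out samples 12 and 15 together (-0.69, adjusted p = 0.056), and leaving out DSS_WT sample 3 ended the second (-0.54, adjusted p = 0.053).

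The bright probes of Atp5f1 did not follow it between Naive_KO and Naive_WT. These 2, ILMN_1249817 and ILMN_2790486, had their highest values in Naive_KO samples 14 to 16 (12.39, 12.42 and 12.42 for the first, 12.45, 12.54 and 12.47 for the second). Their differences between Naive_KO and Naive_WT were 0.17 and 0.37, opposite in sign to the probe that passed. A further, dim probe (ILMN_2584887) differed by -0.55 there (adjusted p = 0.13). Between DSS_WT and Naive_WT the bright probes differed by -0.18 and -0.24, the same sign as ILMN_2717599, and ILMN_2584887 by 0.26. None of these passed. In DSS_KO against Naive_KO, ILMN_1249817 had a difference of -0.35 ± 0.10 (SE, limma adjusted p = 0.039), and ILMN_2790486 differed by -0.42 (adjusted p = 0.07). The first missed the threshold without any 1 of samples 5 to 8 or 14 to 16 (adjusted p from 0.066 to 0.099). The direction for this gene thus depended on the probe. The sequences of these 2 probes are shown because each spans a splice junction of the transcript, with the bases after the junction in capitals. The table gives no genome position for ILMN_2717599 or ILMN_2584887.

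ILMN_1249817: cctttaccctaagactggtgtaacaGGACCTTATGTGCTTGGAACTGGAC
ILMN_2790486: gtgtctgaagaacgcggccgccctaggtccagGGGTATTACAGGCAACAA

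DSS treatment of WT mice asks what colitis itself does in epithelial cells. In DSS_WT against Naive_WT no member was higher (all tested probes: 5.71%) and 4 were lower (4.75%). None passed the study's thresholds by limma (1.74% of all tested probes), and 17 (16.7%) had an unadjusted p under 0.05, against 26.3% of all tested probes. With median scaling in place of quantiles, 3 were lower (all tested probes: 6.2% higher and 8.78% lower) and 9 had an unadjusted p under 0.05 (32.3%). The median difference was 0.01 over the members and -0.01 over all tested probes. Complex II had the lowest median, -0.26 over 5 probes of 3 genes, all 5 below 0, and complex III the highest, 0.09.

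Within complex II, a dim probe of Sdhb, the iron-sulphur subunit that carries electrons through succinate dehydrogenase, passed the test. Its log2 signals were 6.05, 6.09, 5.68 and 5.96 in DSS_WT samples 1 to 4 and 6.45, 6.65, 7.11 and 6.55 in Naive_WT samples 9 to 12. They were 6.15, 6.00, 6.11 and 6.25 in DSS_KO samples 5 to 8 and 6.18, 6.77, 5.90 and 5.93 in Naive_KO samples 13 to 16. The WT groups did not overlap, and the difference was -0.75 ± 0.18 (SE, limma adjusted p = 0.016). It missed the threshold without DSS_WT sample 3 or Naive_WT sample 11 (adjusted p = 0.051 and 0.050), and its size was -0.34 with no background correction (adjusted p = 0.026). The 2 bright probes of Sdhb differed by -0.17 and -0.16 and did not pass. The 3 sequences are shown because the bright pair reads the same stretch shifted by 1 base, with the 49 shared bases in capitals, so that these probes are not separate measurements. The dim probe covers another stretch, at positions 140527083 to 140527132 of chromosome 4 in the table's coordinates (plus strand).

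ILMN_2769064: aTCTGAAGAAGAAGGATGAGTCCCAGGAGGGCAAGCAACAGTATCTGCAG
ILMN_2769065: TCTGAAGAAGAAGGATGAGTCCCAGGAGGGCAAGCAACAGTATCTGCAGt
ILMN_2592389: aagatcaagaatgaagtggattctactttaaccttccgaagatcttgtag

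**Figure D2:**
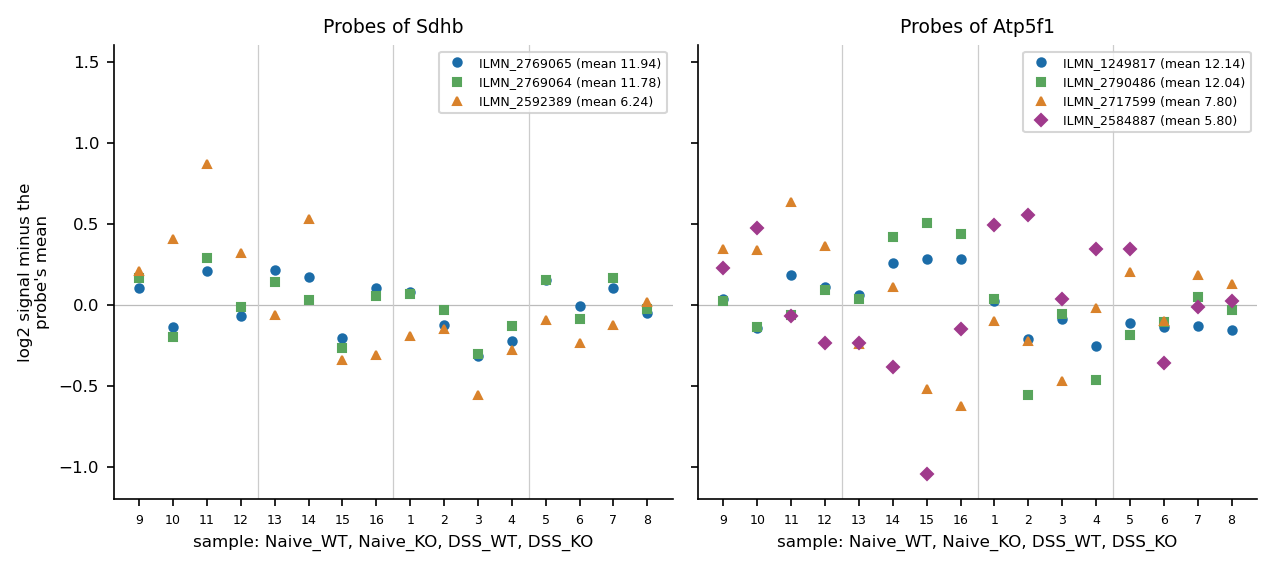
Each point is the log2 signal of 1 probe in 1 sample minus that probe's mean over the 16 samples (vertical axis), with samples ordered by group (horizontal axis). The bright probes of Sdhb overlap between the groups while the dim probe is high in Naive_WT, and the bright and dim probes of Atp5f1 lie on opposite sides of 0 in Naive_KO samples 15 and 16.

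Sdhd, a membrane anchor of complex II with 1 probe, had a difference of the same sign that did not pass: its log2 signals were 10.33, 10.25, 10.71 and 10.50 in Naive_WT samples 9 to 12 and 10.16, 10.22, 9.50 and 10.07 in DSS_WT samples 1 to 4 (difference -0.46, adjusted p = 0.07). Sdhc, the other anchor, differed by -0.26 (adjusted p = 0.22).

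Cox7a2l fell with DSS in WT mice. Its brighter probe (ILMN_1242107) had log2 signals of 12.60, 12.52, 12.66 and 12.50 in DSS_WT samples 1 to 4 and 12.88, 12.87, 13.00 and 13.02 in Naive_WT samples 9 to 12. The groups did not overlap, and the difference was -0.38 ± 0.11 (SE, limma adjusted p = 0.045). The second probe differed by -0.46 (adjusted p = 0.07). In Mbd2KO mice the brighter probe had 12.86, 12.56, 12.31 and 12.40 with DSS and 12.73, 12.85, 12.73 and 12.82 without, a difference of -0.25 (adjusted p = 0.19). The call was lost on leaving out any 1 of the samples other than 5, 7 and 15 (13 of 16 fits, adjusted p from 0.053 to 0.11), while the difference stayed between -0.41 and -0.35 in those. Atp5s, a factor associated with ATP synthase, fell from 8.40, 8.42, 8.49 and 8.74 in Naive_WT to 8.12, 8.18, 8.24 and 8.12 in DSS_WT. That is a difference of -0.35 ± 0.10 (SE, limma adjusted p = 0.041), and it missed the threshold without any 1 of samples 1 to 4, 6, 8, 10 to 12 and 16 (adjusted p from 0.050 to 0.12). Scaling arrays to a common median ended both calls.

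In Mbd2KO mice, DSS_KO against Naive_KO, 4 members were higher (all tested probes: 4.9%) and 2 lower (4.52%). Cox8b alone passed the study's thresholds (all tested probes: 1.72%), and 29 members (28.4%) had an unadjusted p under 0.05, against 24.5% of all tested probes. These 29 became 16 without sample 16 (all tested probes 21.4%), 18 without sample 15 (23.5%) and 40 without sample 13 (25.5%). With median scaling, 7 members were higher and 1 was lower (all tested probes: 4.73% and 5.11%). The median difference was 0.14, with 80 members above 0 and 22 below it, against -0.02 over all tested probes. Complex I had the highest median, 0.23, and complex II the lowest, -0.02. Relative to each probe's mean over the 16 samples, the complex I medians were 0.11, 0.02, 0.13 and 0.08 in DSS_KO samples 5 to 8 and 0.08, 0.04, -0.32 and -0.24 in Naive_KO samples 13 to 16. The groups overlapped, with samples 15 and 16 low and samples 13 and 14 within the range of DSS_KO. This comparison shares its samples with others above, DSS_KO with the first and Naive_KO with the second.

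The probes that rose were of 4 genes. Ndufs4, an accessory subunit that completes the NADH-binding arm of complex I, had log2 signals at its probe ILMN_2663694 of 11.21, 11.17, 11.10 and 11.21 in DSS_KO samples 5 to 8 and 10.91, 10.71, 10.08 and 10.45 in Naive_KO samples 13 to 16. The difference was 0.64 ± 0.17 (SE, limma adjusted p = 0.029), and the other 3 probes of Ndufs4 differed by 0.11, 0.31 and 0.47 without passing. Cox6b2, an isoform known from testis, had 6.49, 6.54, 6.43 and 6.66 in DSS_KO and 5.81, 6.01, 5.78 and 5.97 in Naive_KO, a difference of 0.64 ± 0.19 (SE, adjusted p = 0.040). All DSS_KO samples lay above every sample of the other 3 groups. With no background correction the difference was 0.27 (adjusted p = 0.023).

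Atp5k, subunit e of ATP synthase, passed at its dim probe. That probe had 5.24, 4.92, 5.49 and 5.51 in DSS_KO and was detected on 0 of 4 Naive_KO arrays, where its values were 4.91, 4.50, 4.73 and 4.44. Against the level set by the lowest detected signals of the Naive_KO arrays (4.98), the DSS_KO mean of 5.29 was 1.24-fold higher. This is not a lower limit, since DSS_KO sample 6 lay below that level. The fitted difference was 0.64 (limma adjusted p = 0.0497). That difference was 0.20 with no background correction, 0.31 with an offset of 50 and 0.36 with median scaling, and it passed in none of these (adjusted p = 0.077, 0.075 and 0.27). The brighter probe of Atp5k differed by 1.0965 without passing (adjusted p = 0.06). Cox4nb, which belongs to the endoplasmic reticulum despite its name, had 8.93, 8.88, 8.86 and 8.99 in DSS_KO and 8.59, 8.61, 8.11 and 8.51 in Naive_KO at the probe that passed (0.46 ± 0.14, SE, limma adjusted p = 0.045), and 0.01 at its other probe. The 4 rises were sensitive to single samples: the call was lost without any 1 of samples 5, 6, 8, 15 and 16 for Ndufs4 (adjusted p from 0.061 to 0.082), of 5 to 8 and 13 to 16 for Cox6b2 (0.054 to 0.11), of 1 to 5, 7, 8, 10 and 14 to 16 for Atp5k (0.055 to 0.14), and of 5 to 10 and 14 to 16 for Cox4nb (0.054 to 0.12). Of these, samples 1 to 4, 9 and 10 are not in this comparison and enter only through the spread shared by all groups.

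**Figure D3:**
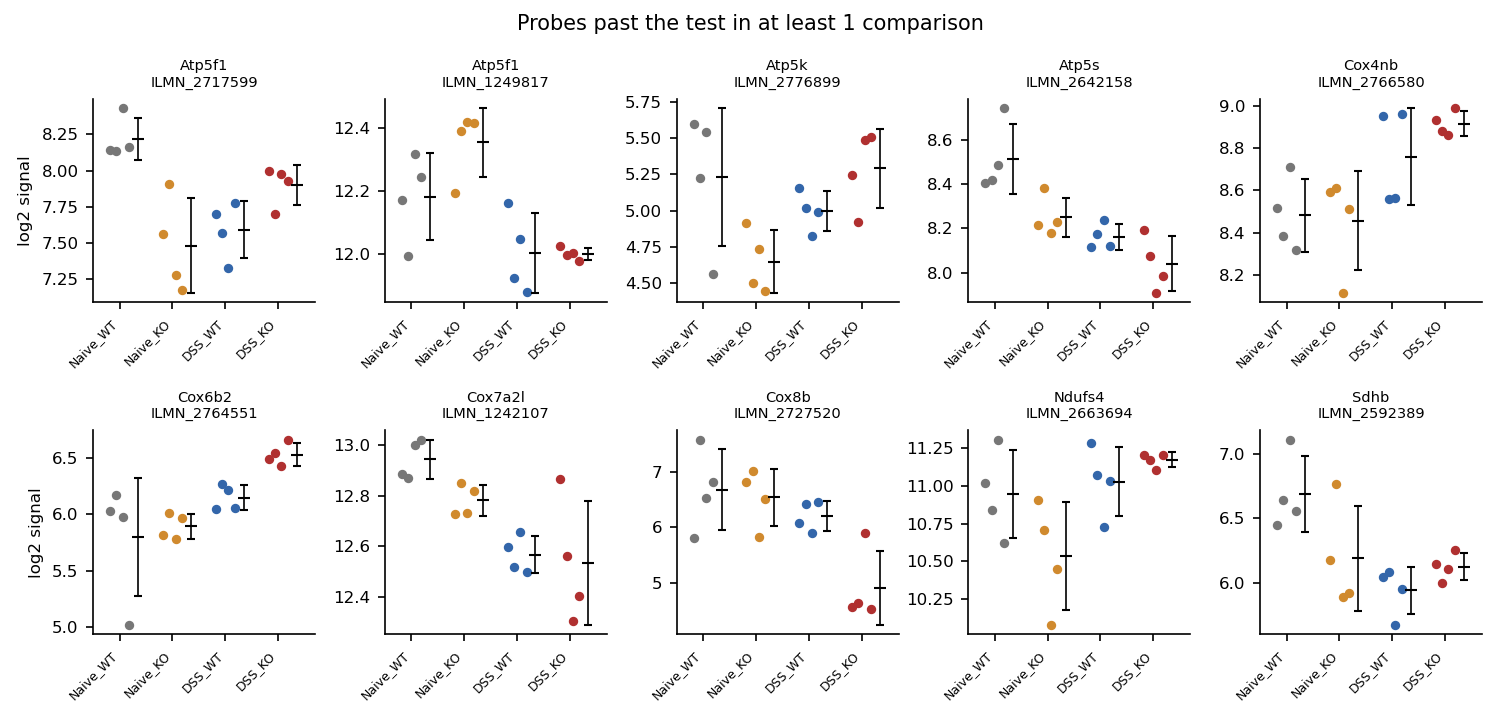
Log2 signal (vertical axis, a scale of its own in each panel) of the 10 probes that passed the test in at least 1 comparison, in the 4 groups (horizontal axis). Points are samples, and the black bar and whiskers are the mean and SD of 4 samples. In Cox8b, 3 DSS_KO samples lie between 4.52 and 4.64 and the remaining one at 5.90, while in Cox6b2 the DSS_KO samples lie above all others.

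Whether DSS and genotype acted together was tested with the interaction, the Mbd2KO difference with DSS minus that without it. It passed for no member and for no probe of the whole table (0% of 21938) in limma. An unadjusted p under 0.05 was met by 15 members (14.7%) and by 2339 of all tested probes (10.7%). These 15 members became 30 without sample 12 (all tested probes 12.3%) and 9 without sample 3 (9.44%) or 11 (9.08%). The smallest adjusted p among the members was 0.17, for Atp5f1 ILMN_2717599 (1.04). So the calls that appear in 1 genotype or treatment only are not shown to differ from the other. This test is the least precise: the interval lay between -1 and 1 for 79 of 102 members (77.5%, all tested probes 83.3%).

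Tissue isoforms gave a further view of cytochrome c oxidase. Cox7a1, the isoform of heart and skeletal muscle, had 11.74, 12.01, 11.78 and 10.69 in Naive_WT samples 9 to 12 and 10.68, 10.49, 11.13 and 10.46 in DSS_KO samples 5 to 8. It had 11.24, 11.61, 11.11 and 10.61 in DSS_WT and 11.68, 11.19, 10.60 and 10.71 in Naive_KO. All groups overlapped, and its difference between DSS_KO and DSS_WT, -0.45, had an interval from -1.06 to 0.16. Its widespread counterpart Cox7a2 differed by -0.05 there (-0.51 to 0.41) and by 0.59 in DSS_KO against Naive_KO (0.13 to 1.06, adjusted p = 0.10). Cox6a1, the widespread isoform of its pair, averaged between 13.63 and 13.69 in all groups at its brighter probe. Ndufa4, now placed with complex IV, had group means from 12.62 (Naive_KO) to 13.13 (DSS_WT). For the membrane ring of ATP synthase, Atp5g2 differed by no more than 0.14 in size in any comparison between groups and Atp5g3 by no more than 0.21.

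The members spread widely among the naive samples. Each probe's signal was set against its own mean over the 16 samples, and the median over the 102 members was taken per sample. It was 0.15, 0.04, 0.10 and -0.26 in Naive_WT samples 9 to 12 and 0.05, 0.03, -0.27 and -0.14 in Naive_KO samples 13 to 16. With DSS it stayed between -0.02 and 0.11 in the WT samples and between 0.01 and 0.11 in the Mbd2KO samples. Samples 12, 15 and 16 were thus the low ones. Sample 12 was the lowest of the 16 for 34 members (33.3%) and sample 15 for 31 (30.4%), against 8.53% and 13.7% of all tested probes. Over all tested probes, the same median lay within -0.02 and 0.02 in every sample.

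**Figure D4:**
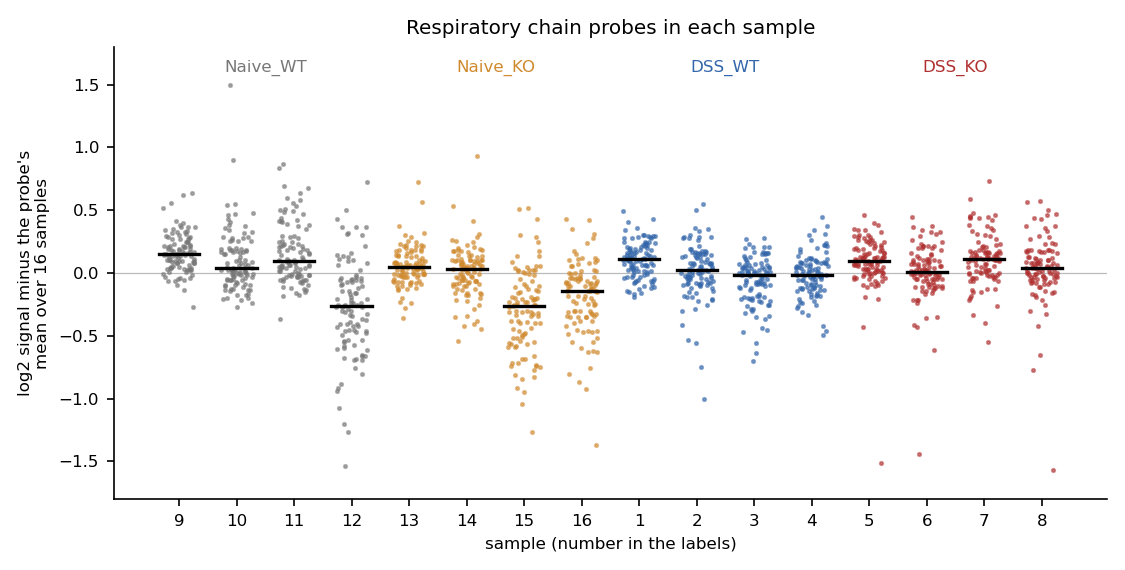
Each point is 1 of the 102 probes in 1 sample, shown as its log2 signal minus its mean over the 16 samples (vertical axis). Samples are grouped along the horizontal axis and black bars are medians. Naive samples 12, 15 and 16 have medians of -0.26, -0.27 and -0.14 and long lower tails, and the DSS samples sit near 0.

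The low samples differed in which subunits were low. In complex I, the 7 probes of the 6 detected core subunits, which carry out the electron transfer, had medians of -0.05, -0.15 and -0.06 in samples 12, 15 and 16. The 41 probes of 28 other subunit genes, mostly of small accessory proteins around that core and with Ndufa4 counted here by its symbol, had -0.43, -0.40 and -0.30. In the other naive samples these lay between 0.04 and 0.19. Ndufa3, a small membrane subunit, had 12.64, 12.66, 12.36 and 11.01 in Naive_WT samples 9 to 12 and 12.37, 11.86, 11.54 and 11.72 in Naive_KO samples 13 to 16 at its brighter probe, and its second probe had the same lowest sample. Not every complex was low in these samples: complex II had a median of 0.14 in sample 12 and 0.05 in sample 16, and complex III of 0.13 in sample 15. Ndufv1 and Uqcrc1 went the other way in sample 15, which was their highest (13.33 and 13.35). The number of detected probes in samples 12, 15 and 16 (20356, 19339 and 20040) lay within the range of the others. What sets these samples apart was not tested, and the table does not show which arrays shared a BeadChip.

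The number of called members depended on single samples, of the naive and of the DSS groups. Leaving out a sample that is not in a comparison changes no difference there, only the spread shared by all groups. Without sample 12, limma called 9 members (8.82%, all tested probes 2.23%) lower in Naive_KO than in Naive_WT, among them Atp5k, Cox7b, Ndufa1, Ndufa3, Ndufb2, Ndufb4 and Ndufb9, and 13 higher (12.7%, all tested probes 5.67%) and 2 lower (1.96%, all tested probes 4.85%) in DSS_KO than in Naive_KO. The differences in DSS_KO against Naive_KO stayed the same, since sample 12 is not in that comparison. The median difference became -0.17 in Naive_KO against Naive_WT. It went from 0.01 to -0.12 in DSS_WT against Naive_WT. With samples 12 and 15 both left out, 3 members (2.94%, all tested probes 1.15%) were lower in Naive_KO than in Naive_WT, and in DSS_KO against Naive_KO 7 were higher (6.86%, all tested probes 4.37%) and 1 lower (0.98%, all tested probes 4.4%). Without sample 13, 10 were higher (9.8%, all tested probes 5.57%) and 3 lower (2.94%, all tested probes 4.6%) in that comparison. Without sample 5, 8, 15 or 16 limma called none higher there (3.33%, 2.71%, 3.74% and 2.98% of all tested probes) and 1 lower (2.75%, 2.28%, 3.92% and 2.74%), with 1 higher and 1 lower without sample 6 (all tested probes 3.54% and 3.24%) or 7 (4.51% and 4.28%) and 2 higher and 1 lower without sample 14 (3.29% and 2.75%). In DSS_WT against Naive_WT limma called 0 members without sample 3 (13 at an unadjusted p under 0.05), against 3.92% of all tested probes higher and 3.01% lower. There it called 1 without sample 11 (all tested probes 2.85% lower) and 2 without any 1 of samples 2, 4, 6, 8, 10 and 16 (2.35% to 4.44%), all of them lower. In Naive_KO against Naive_WT 2 were lower without sample 13 or 14 (all tested probes 1.32% and 1.6%).

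The spread also shows in the precision. The median SD over the members was 0.12 in DSS_WT and 0.10 in DSS_KO, below the 0.20 and 0.18 of all tested probes. It was 0.23 in Naive_WT and 0.21 in Naive_KO, where all tested probes had 0.20 and 0.22. The SE in limma uses a spread shared by all groups. The intervals and p-values of DSS_KO against DSS_WT therefore include the wider naive spread of the members. Of the 23 genes with several probes, the probes agreed in the sign of the difference in 59 of 92 pairs of a gene and a comparison. The share that chance would give was not worked out, and some probes, such as the bright pair of Sdhb, are not separate measurements.

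Genes around the respiratory chain were looked at by lists. Of 38 assembly factors outside the rule, 0 passed between DSS_KO and DSS_WT by limma (also 0 at an unadjusted p under 0.05). In DSS_KO against Naive_KO 2 were higher (all tested probes: 4.9%) and 1 was lower (4.52%), the last being Cox15, which helps to make the heme of cytochrome c oxidase (-0.36 ± 0.10, SE, limma adjusted p = 0.031). Taco1, which promotes translation of a mitochondrial Cox gene, was higher in Naive_KO (0.68 ± 0.15, adjusted p = 0.015) and in DSS_WT (0.71 ± 0.15, adjusted p = 0.0060) than in Naive_WT. Among 16 electron carriers and remaining subunits, Usmg5, a small ATP synthase subunit that the symbol rule misses, was lower in Naive_KO than in Naive_WT (-1.02 ± 0.26, adjusted p = 0.034) and higher in DSS_KO than in Naive_KO (1.12 ± 0.26, adjusted p = 0.013). Coq9, needed to make ubiquinone, was lower in DSS_KO than in Naive_KO (-0.44 ± 0.12, adjusted p = 0.025).

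The 68 mitochondrial ribosome genes, whose products translate the chain's mitochondrial subunits, had 4 higher in DSS_KO than in Naive_KO and none lower, a share near the 4.9% of all tested probes that were higher there, with Mrpl52 first (0.98 ± 0.25, SE, limma adjusted p = 0.023). In the other comparisons between groups, limma called 0 of them, with 3 to 9 at an unadjusted p under 0.05. Their median difference in DSS_KO against Naive_KO was 0.17. Of 17 mitochondrial biogenesis factors, Ppargc1a, the coactivator known for driving respiratory gene expression, was lower in DSS_KO than in Naive_KO (-0.87 ± 0.21, adjusted p = 0.017). Polg2, part of the mitochondrial DNA polymerase, was lower in DSS_WT than in Naive_WT (-0.49 ± 0.14, adjusted p = 0.031).

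Carriers and central metabolism were counted the same way. Slc25a12, the aspartate and glutamate carrier of the inner membrane, was lower with DSS in both genotypes, with differences of -0.67 ± 0.17 (SE, limma adjusted p = 0.018) in WT and -1.05 ± 0.17 (adjusted p = 0.0013) in Mbd2KO mice. It was 1 of 10 carriers and porins tested, where 4.75% and 4.52% of all tested probes were lower. Of 17 genes around the citric acid cycle, Pdhb, a subunit of pyruvate dehydrogenase, was lower in DSS_KO than in Naive_KO (-0.40 ± 0.12, adjusted p = 0.040) and the rest did not pass in any comparison. Among 16 glycolysis genes, Pfkp, a phosphofructokinase, was higher in Mbd2KO cells with DSS (0.78 ± 0.20, adjusted p = 0.030) and without it (0.79 ± 0.20, adjusted p = 0.032). Pfkm, its muscle-type counterpart, was lower at its brightest probe in Naive_KO (-0.49 ± 0.13, adjusted p = 0.039) and in DSS_WT (-0.46 ± 0.13, adjusted p = 0.035) than in Naive_WT. The other 2 Pfkm probes differed by -0.29 and 0.01 in Naive_KO against Naive_WT and by -0.25 and -0.08 in DSS_WT against Naive_WT. Of 8 mitochondrial redox defence genes, limma called 0 in any comparison (0 to 2 at an unadjusted p under 0.05).

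Genes of other cell types also rose with DSS. Of 9 myeloid genes tested, 8 were higher with DSS in each genotype, with median differences of 1.51 in WT and 1.19 in Mbd2KO mice and list means of 7.57 to 8.47 in DSS_WT against 6.18 to 6.83 in Naive_WT, and of 8.22 to 8.31 in DSS_KO against 6.43 to 7.47 in Naive_KO. In DSS_WT against Naive_WT, 7 of 9 fibroblast and matrix genes were also higher (median difference 1.05), as were 3 of 4 T and NK cell genes, 2 of 3 neutrophil genes, 1 of 3 B and plasma cell genes and 2 of 8 endothelial genes. In DSS_KO against Naive_KO, 2 of the 3 neutrophil genes were higher and limma called none of the other lists just named (at an unadjusted p under 0.05, 3 fibroblast and matrix genes, 2 T and NK cell genes, 0 endothelial genes and 0 B and plasma cell genes). Among the lists of intestinal secretory cells, 1 of 8 goblet cell genes was lower there (Fcgbp, a mucus protein, -1.97 ± 0.59, SE, limma adjusted p = 0.044) and 1 of 8 enteroendocrine genes (Insl5, a colonic peptide hormone, -2.34 ± 0.61, adjusted p = 0.023). In DSS_WT against Naive_WT the goblet cell gene Agr2 was lower (-0.72 ± 0.22, adjusted p = 0.049). The part of these cell types in the calls of Sdhb, Cox7a2l, Atp5s, Atp5f1 and the other members was not tested.

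The promoters of the members were searched for short letters. Of the 73 genes, 63 had at least 1 promoter in the RefSeq table (GRCm38.p6, 250 bases before to 50 after the start), 69 promoters in all. The core letters of sites for factors linked to respiratory genes were searched on both strands. GCGCATGCG (NRF1) stood in 8 of 69 (11.6%), against 2.35% of all protein-coding and 1.75% of all promoters in the table. CCGGAAG (the ETS family, with GABPA) stood in 16 (23.2%), against 11.6% and 8.86%, and AAGATGG (YY1) in 12 (17.4%), against 6.24% and 6.34%. TGACGTCA (CREB) stood in 3 (4.35%), against 2.23% and 1.79%, and GGGCGGG (SP1) in 24 (34.8%), against 33.9% and 25.6%. None of these motifs contains another. A match is only a stretch of letters, and these shares were not tested.

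**Figure D5:**
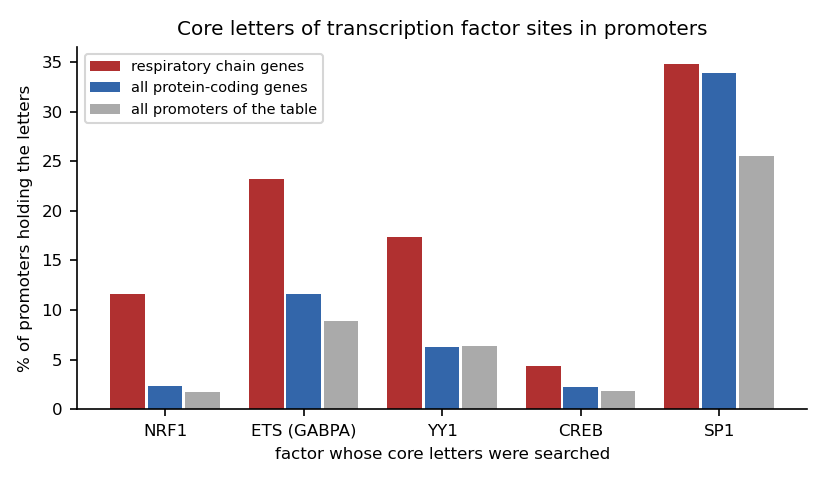
Percentage of promoters (vertical axis, from 0) that hold the core letters of 5 factors (horizontal axis), for the members (69 promoters), all protein-coding genes and all promoters of the RefSeq table. The red bar is the tallest for NRF1, ETS, YY1 and CREB, and it is near that of protein-coding genes for SP1.

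Upstream stretches with the NRF1 letters are shown for 3 of these genes: Atp5k and Cox6a1, whose values are given above, and Atp5l, whose stretch also holds the ETS letters. Capitals mark the NRF1 and ETS letters, including the overlap of the NRF1 letters on both strands. Coordinates are GRCm38.p6, and all 3 genes lie on the minus strand. The Atp5k stretch is chr5:108434400-108434489, that of Cox6a1 is chr5:115349071-115349160 and that of Atp5l is chr9:44920935-44920992.

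Atp5k: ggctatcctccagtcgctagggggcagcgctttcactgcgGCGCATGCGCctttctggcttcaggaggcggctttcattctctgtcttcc
Cox6a1: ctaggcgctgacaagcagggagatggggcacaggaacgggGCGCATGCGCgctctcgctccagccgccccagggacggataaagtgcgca
Atp5l: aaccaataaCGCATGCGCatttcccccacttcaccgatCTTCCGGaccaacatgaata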

How the data were processed

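Per the file headers, the scanner software exported the values without normalization or background subtraction. The deposited signals are mean bead intensities on a linear scale, 1 per probe and array. The deposited detection p-value is the share of the 936 negative controls that were brighter than the probe. The submitters' processing notes name lumi and limma, with no version given in the sources used here. Signals of 45281 probes were processed with limma's neqc (limma 3.58.1, R 4.3.3, offset 16: background correction, quantile normalization, log2), which compresses differences of dim probes. Probes detected on fewer than 4 arrays were left out (23343), and 21938 were tested. The number of arrays limits the precision. Over detected probes, log2 values differed with an SD of 0.194 between arrays 4 and 4R and 0.236 between 5 and 5R, less than between any other arrays of their groups, so each pair was averaged, though the labels do not state what R means.

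The 16 samples were fitted together in limma with 4 group means (two-sided, 12 residual and 4.71 prior degrees of freedom). Benjamini-Hochberg adjustment ran over all tested probes within each of 5 contrasts. Calls are adjusted p under 0.05, or the study's thresholds where named. Only the limma fit was tested on simulated data, with log2 values drawn around the normalized means, for DSS_KO against DSS_WT. Background correction, normalization, the detection filter and the averaging of arrays were not tested in this way. Differences are first group minus second, and values after ± are SE or SD as named, with SE meant where a difference and an adjusted p stand together.

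Members, complexes, gene lists and the rule for named genes were chosen with earlier results of these data known. Named were 10 fixed central subunits, every member that passed the test in a comparison, isoform sets, and up to 3 called genes per list and comparison. Probes named beyond these (Ndufa3, Sdhc, Sdhd and those called without sample 12) and the sequence motifs were chosen after the values were seen. A gene of a list is given by its brightest probe. All 73 genes matched RefSeq by gene ID or symbol. Protein sequences were not used here.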

Additional observations from a re-analysis of the deposited data

Results flagged for a closer look

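A sample was singled out where its gap to the nearest of its group made up a larger share of the group's range than Dixon's 95% limit for 4 samples. This was met in 7 of 116 sets of 4 values, of the 23 named probes and the medians of the complexes, and chance meets it in about 1 of 20 sets.

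In DSS_KO, sample 7 stood apart for Cox8b with a log2 signal of 5.903, against 4.52 to 4.64 in the others. In Naive_KO, sample 15 stood apart for Ndufv1 (13.33, others 12.72 to 12.76) and Uqcrc1 (13.35, others 13.05 to 13.08), on the high side in both, and sample 13 for the brightest Atp5f1 probe (12.19, others 12.39 to 12.42). In Naive_WT, sample 12 was low for Cox7a2 (9.359, others 10.19 to 10.34), sample 9 was high for Ndufv1 (12.95, others 12.77 to 12.79), and sample 11 was high for Atp5f1 ILMN_2717599 (8.431, others 8.14 to 8.16). That last probe is the one that passed in both comparisons with Naive_WT.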

How the results depend on the processing

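Each count of called members and each median was recomputed under 8 other settings, with each sample left out in turn, and without samples 12 and 15 (chosen after seeing the data). Of 12 called differences, none changed sign. Cox8b in DSS_KO against Naive_KO passed in all 24 fits that held it (-1.96 to -0.60), and Atp5f1 ILMN_2717599 in 23 of 25 in the naive comparison. Atp5k passed in 8 of 24 and Cox7a2l in 9 of 25.

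In DSS_KO against DSS_WT limma's count was 0 with no background correction, with offset 50, with no filter and with probes detected on all 18 arrays, which leaves Cox8b out (10, 7, 8 and 3 members at an unadjusted p under 0.05, and 2.5%, 2.96%, 0.936% and 3.32% of all tested probes lower), 2 without samples 12 and 15 (1 each way, all tested probes 3.24% higher and 4.12% lower), and 0 to 2 with 1 sample left out. In Naive_KO against Naive_WT it was 2 with no background correction, with offset 50 and with 18 separate arrays (all lower, all tested probes 2.73%, 2.84% and 3.19%), 0 with the naive groups alone (15 at an unadjusted p under 0.05, all tested probes 0.593% lower), 3 without samples 12 and 15 (all lower, all tested probes 1.15%), and 1 to 9 with 1 sample left out. In DSS_WT against Naive_WT it was 7 with 18 separate arrays (all lower, all tested probes 7.5%), 2 with the WT groups alone (both lower, 3.33%), and 0 to 5 with 1 sample left out. With no background correction 1 member was higher there and 5 were lower (all tested probes 5.47% and 4.42%). Without samples 12 and 15, 6 were lower (3.65%) and 0 higher (4.48%). In DSS_KO against Naive_KO it was 2 with no filter, both lower (all tested probes: 1.85% higher and 1.88% lower), 13 with 18 separate arrays (10 higher and 3 lower, all tested probes 6.96% and 6.81%), 3 with arrays 4R and 5R left out (1 higher and 2 lower, all tested probes 4.89% and 4.39%), 8 (7 higher and 1 lower) with median scaling (4.73% and 5.11%) and with the Mbd2KO groups alone (3.92% and 3.45%), and 1 to 15 with 1 sample left out. With no background correction 6 members were higher and 2 lower in DSS_KO against Naive_KO (all tested probes 5% and 4.86%). The interaction count was 0 in every fit run. The medians with 1 sample left out ranged from 0.02 to 0.08, from -0.17 to -0.03, from -0.12 to 0.053 and from 0.10 to 0.18 in the same order, and the median in DSS_WT against Naive_WT was -0.12 without samples 12 and 15. Beyond the cases named, causes were not tested. No paired analysis was possible because the sample numbers of the 4 groups do not coincide. The BeadChip as a block was not run, since labels and headers do not give it. Of the probes that passed, those of Cox8b, Cox6b2 and Atp5k had the lowest mean signals. Some members that did not pass were dimmer than Cox8b and Cox6b2.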
